A study of Chlamydomonas reinhardtii with 4 samples.

Results

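Models raised only late in nitrogen starvation were followed in the unicellular green alga Chlamydomonas reinhardtii, strain cc3491. The array carried 3 probes, here called slots 1, 2 and 3, for each of 14557 gene models of the JGI 3.1 annotation, and 8319 models had at least 1 probe well above background in both dyes on all 4 arrays. A model was taken as late-raised when its median log2 ratio, starved cells over 0 h, was under 0.5 at 24 h and at least 1 at both 72 h and 96 h. This held for 65 models, or 0.781% of those measured. The models were chosen by their ratios at 24, 72 and 96 h, which are therefore given as a description without a test. NAR1.2 and a model of the phosphate transporter PTB5 (CHLREDRAFT_196465) were left out of the choice by name, but on these values neither met it. The PTB5 model had no kept probe and NAR1.2 was already at 2.52 at 24 h.

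The groups were cells starved for 24, 48, 72 and 96 h, each on 1 array in the Cy5 channel, and cells taken at 0 h in the Cy3 channel of all 4 arrays. All groups were wild type cc3491 grown in acetate medium (TAP) under constant light. The cells at 0 h were taken from early stationary cultures in normal TAP before starvation, and the starved cells had been washed and moved to TAP without nitrogen. RNA of biological replicates was pooled, the dyes were not swapped and all 4 arrays lay on 1 slide, so no value below has a biological replicate check. A ratio averages over the whole culture, and more transcript per cell cannot be told apart from more cells that carry it.

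Nitrogen starvation stops growth of C. reinhardtii, and cells recycle protein, lower photosynthesis and store starch and lipid. Cells short of inorganic carbon use a carbon concentrating mechanism, in which transporters bring bicarbonate across the plasma membrane and the chloroplast envelope and carbonic anhydrases interconvert bicarbonate and CO2. Ribosomes hold a large share of the nitrogen in a growing cell, and making them is tied to nutrient supply. Of the 65 late-raised models, 8 had a name or description in the study's tables. They were the bicarbonate transporter HLA3, the regulator LCR1, the ribosomal protein RPS6, the ribosome-bound RACK1, the translation factor subunit IF2Bd, the ornithine transaminase OTA1, the RNA helicase RHE and an acetyltransferase.

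The study's probe table, where readable, gave sequences for 5 of the 65 models, and a few of these probes are shown. All have a reading frame without a stop codon, and they were picked after the values were seen. Model 195584 is shown because slots 1 and 2 carry the same 60 bases and so measured 1 sequence in duplicate. Slots 2 and 3 of model 195585 are shown because they carry its late ratio while its slot 1 was saturated, and the probes of OTA1 and model 152438 because they were dim at 0 h and were left out.
Model 195584 slots 1 and 2: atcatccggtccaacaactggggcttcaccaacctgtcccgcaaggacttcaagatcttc
Model 195584 slot 3: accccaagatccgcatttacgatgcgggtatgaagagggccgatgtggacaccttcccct
Model 195585 slot 2: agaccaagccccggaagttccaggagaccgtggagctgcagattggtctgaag
Model 195585 slot 3: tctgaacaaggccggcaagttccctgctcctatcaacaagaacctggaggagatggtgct
OTA1 slot 3: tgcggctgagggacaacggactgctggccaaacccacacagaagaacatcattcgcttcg
Model 152438 slot 3: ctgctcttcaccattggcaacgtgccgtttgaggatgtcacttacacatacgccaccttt

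On the 48 h array, which the choice did not use, most late-raised models lay between their 24 h and their late values. The median log2 ratio was 0.23 at 24 h, 0.92 at 48 h, 1.21 at 72 h and 1.43 at 96 h. At 48 h, 24 of the 65 models (36.9%) were at least 2-fold higher in starved cells than at 0 h, against 8.39% of all measured models. Another 34 had a log2 ratio from 0.5 to under 1, 2 lay from 0 to under 0.5, and 5 were below 0. Only 2 were at least 2-fold lower at 48 h, against 12.3% of all measured models. All 4 ratios of a model share its probes and the 0 h RNA, so the 48 h value is not an independent measurement. The choice also set the 24 h value low and the late values high, which favours a 48 h value between them. With normexp background correction and loess in place of the scanner's processed signals, 44 models met the limits and 13 of these (29.5%) were at least 2-fold higher at 48 h, against 5.99% of all measured models.

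A ratio of 1 or more at both 72 h and 96 h was found for 476 models, and 309 of these had one at 24 h as well. A further 102 lay from 0.5 to under 1 at 24 h, and the 65 late-raised models made up the remaining 13.7%. Of the 411 models raised at both late times that were not late-raised, 353 (85.9%) were at least 2-fold higher at 48 h. Over all measured models 8.19% were at least 2-fold higher at 72 h and 10.2% at 96 h.

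**Figure D1:**
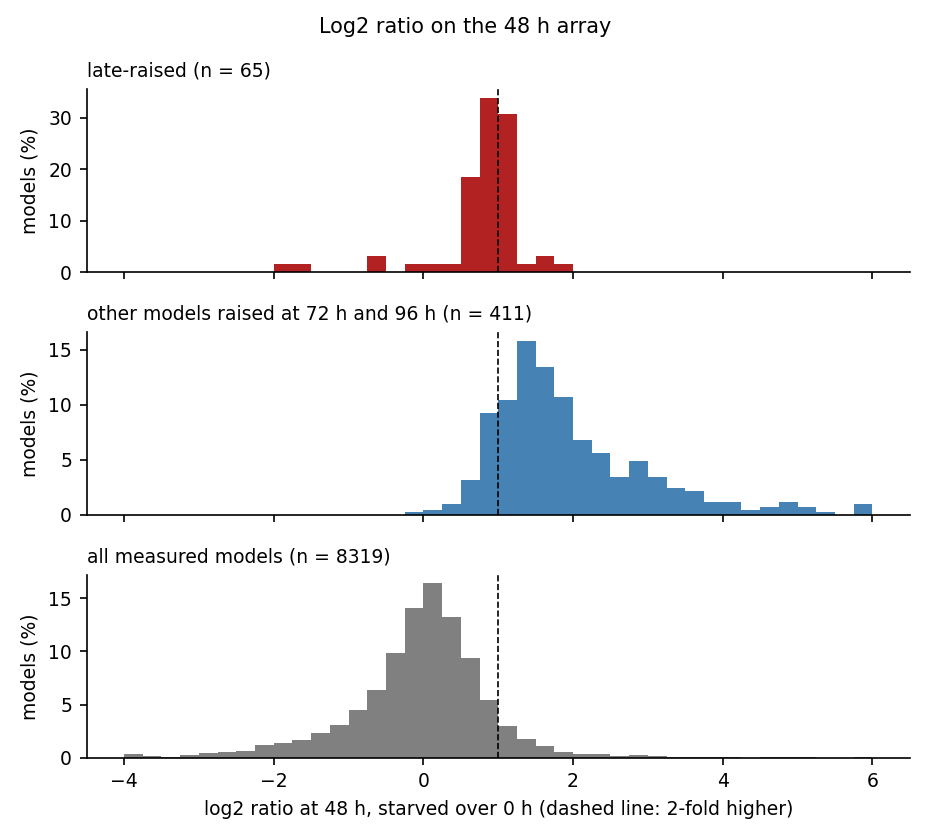
Percent of models by log2 ratio on the 48 h array, starved over 0 h, in bins of 0.25, for the 65 late-raised models, the 411 other models raised at 72 h and 96 h, and all 8319 measured models. The dashed line marks 2-fold higher, and the end bins hold all values beyond them. The late-raised models centre at 0.92, and 5 of them lie below 0.

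By shape, 5 models stood below 0 at 48 h and at least 1.83 higher, on the log2 scale, at 72 h: HLA3, LCR1 and models 195242, 205698 and 148898. They were singled out after their values were seen. The step between 48 h and 72 h was 1.83 to 4.74 for these 5 and -0.34 to 1.06 for the other 60. A value below 0 at 48 h and at least 1 at 72 h forces a step above 1. The contrast between the 5 and the 60 is thus in part fixed by how they were picked. Of all measured models 4.71% had a step of at least 1 and 130 had one of at least 1.83. Of the other 60 models 59 had a higher ratio at 48 h than at 24 h. Their medians were 0.27 at 24 h, 0.94 at 48 h, 1.21 at 72 h and 1.41 at 96 h. Ratios at 96 h exceeded those at 72 h in 47 of the 65 models, and in 37 the ratio was higher on each array than on the one before. The choice favours a rise after 24 h, and the shares of all measured models with these orders were not counted.

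**Figure D2:**
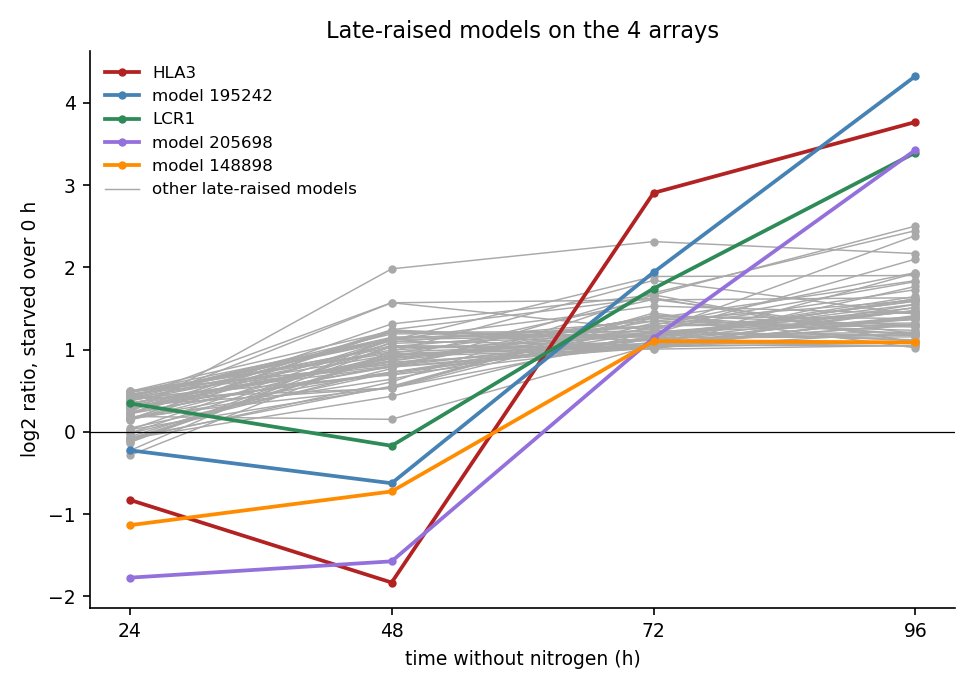
Log2 ratio, starved over 0 h, of each of the 65 late-raised models on the 24, 48, 72 and 96 h arrays, 1 line per model. The 5 coloured models are below 0 at 48 h and the grey lines are the other 60, which range from 0.15 to 1.98 there.

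The first of the steep models was HLA3 (model 134058, locus CHLRE_02g097800v5), an ABC transporter that takes up bicarbonate at the plasma membrane. Its 1 kept probe, slot 1, gave log2 ratios of -0.83 ± 0.22 at 24 h, -1.83 ± 0.27 at 48 h, 2.91 ± 0.34 at 72 h and 3.77 ± 0.41 at 96 h, where the error is that of the scanner software for 1 spot. In starved cells its processed Cy5 intensity was 823, 343, 11720 and 188974 on these arrays, against 1460, 1221, 1564 and 13878 in the 0 h channel. The starved signal was thus below the 0 h signal on the first pair of arrays and above it on the second pair. The Cy5 spot was saturated at 96 h, so the ratio of this spot was at least 13.6-fold there. The 0 h signal should be the same on all arrays, yet on the 96 h array it was far above the others. The left-out slot 2 had 37918 in starved cells against 497 at 0 h on the 96 h array, the only one on which its 0 h signal was well above background. Slot 3, left out as well, had 76.4, 94.2, 83.2 and 692 in starved cells, and its 0 h signal was well above background only on the 96 h array, at 122. The probes thus differed at 96 h, with log2 ratios of 3.77 in slot 1, 6.25 in slot 2 and 2.505 in slot 3. They also differed at 72 h, with 2.91 in slot 1, 4.63 in slot 2 and 0.54 in slot 3. At 72 h the 0 h signals of slots 2 and 3 were not well above background. The part of the 0 h signal in the 96 h ratio was not tested. With 1 common 0 h signal, the mean over the 4 arrays, the log2 ratio of slot 1 was 6.21 at 96 h and 2.23 at 72 h.

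LCR1 (model 205566), a regulator of genes induced at low CO2, had log2 ratios of 0.35, -0.17, 1.74 and 3.40 at 24, 48, 72 and 96 h. Slot 2 gave -0.01 ± 0.21 at 24 h and 3.19 ± 0.36 at 96 h, and slot 3 gave 0.70 ± 0.21 and 3.60 ± 0.39. Both kept probes had the same shape, but slot 3 alone lay above the limit at 24 h. In starved cells slot 3 had intensities of 5091, 2852, 10980 and 40876, against 3139, 2725, 2932 and 3379 at 0 h. Its starved signal was highest at 96 h and lowest at 48 h, and its 0 h signal stayed between 2725 and 3379.

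Model 195242 (CHLRE_01g003950v5) has no name in the tables used. Its log2 ratios were -0.22 ± 0.21, -0.62 ± 0.22, 1.94 ± 0.27 and 4.33 ± 0.46, the last a 20.1-fold difference. The kept slot 2 had intensities of 1060, 660, 4253 and 30467 in starved cells, against 1238, 1017, 1108 and 1519 at 0 h. The 0 h signal failed the background flag on every array in slot 1 and on all but the 96 h array in slot 3, so neither gives a measured course.

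Model 205698 (CHLRE_16g685100v5), described as an acetyltransferase, was among the 2 late-raised models at least 2-fold lower at 24 h. Its kept slot 2 gave -1.77 ± 0.26, -1.57 ± 0.25, 1.14 ± 0.23 and 3.43 ± 0.38. Intensities were 412, 410, 2826 and 16158 in starved cells, against 1407, 1219, 1282 and 1502 at 0 h. Slot 1, left out because its Cy5 signal was well above background on only 3 arrays, gave 3.42 at 96 h, whereas the dim slot 3 gave 0.16.

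Model 148898 (CHLRE_09g393543v5, unnamed) was the other model at least 2-fold lower at 24 h. Its kept probes gave a median of -1.13 at 24 h, -0.72 at 48 h, 1.10 at 72 h and 1.09 at 96 h, and they differed by SDs of 0.06, 0.04, 0.02 and 0.01 (n = 2 probes). In starved cells slot 1 had 2713, 2988, 11238 and 11196, against 5774, 5022, 5275 and 5301 at 0 h.

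**Figure D3:**
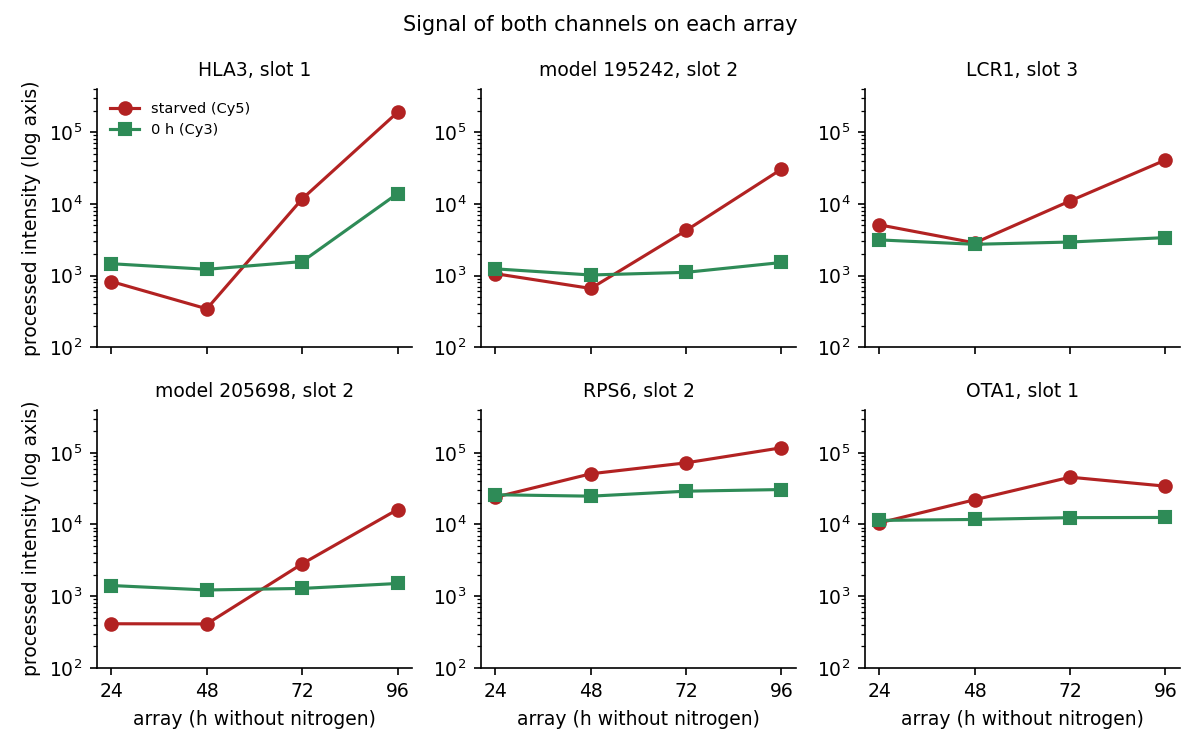
Processed intensity on a log axis of 1 kept probe each of HLA3, model 195242, LCR1, model 205698, RPS6 and OTA1 on the 4 arrays, for starved cells (Cy5, circles) and cells at 0 h (Cy3, squares). The 0 h signal is level across arrays except for HLA3, where it is 13878 on the 96 h array and 1221 to 1564 on the others.

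For most late-raised models other than HLA3 the 0 h signal was stable. After each array was centred on its median, the highest and lowest 0 h signals of a model were a median of 0.14 log2 units apart, against 0.15 over all measured models. The range exceeded 1 only for HLA3, at 3.35, and exceeded 0.5 for 4 of the 65 models. Over all measured models it exceeded 1 in 1.15% and 0.5 in 7.18%. With a level 0 h signal the ratios of a model follow its starved signal.

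HLA3 and LCR1 were the 2 late-raised models in a list of 19 models linked to low CO2, all 19 of which were measured. That list was taken from the study's tables, which in part report these samples, and from textbook symbols. It was made with earlier results of these data known, so it gives no independent evidence of direction. Of the 19, the number at least 2-fold higher was 8 at 24 h, 8 at 48 h, 10 at 72 h and 10 at 96 h, where 7.39%, 8.39%, 8.19% and 10.2% of all measured models were. The number at least 2-fold lower was 2, 3, 2 and 2, where 13.2%, 12.3%, 12.8% and 14.3% of all measured models were. The median log2 ratio was 0.35 at 24 h, 0.03 at 48 h, 1.14 at 72 h and 1.56 at 96 h, against 0.05, 0.04, 0.05 and 0.08 over all measured models. HLA3 and LCR1 are among the 10 at both late times, as the choice required, and they also enter the medians. The higher late counts and medians are thus in part fixed by the choice. CCP1, which the study described as a chloroplast envelope protein, came close to the limits. It had 0.58 at 24 h, 0.03 at 48 h, 4.32 at 72 h and 5.04 at 96 h. CCP2, its close relative, was high on every array, at 2.55, 2.97, 3.55 and 5.09. NAR1.2, a chloroplast bicarbonate channel and the model left out by name, had 2.52, 3.32, 4.36 and 7.09, and NAR1.3 was above 1 only at 72 h, with -0.23, -0.53, 1.14 and -0.49. The carbonic anhydrases CAH1 and CAH5 and the transporter LCI1 stayed between -0.75 and 0.13 on all 4 arrays. Of these, CAH5 had -0.10, -0.20, -0.75 and -0.22. The study reported many carbonic anhydrases as down-regulated and the mitochondrial one as up-regulated.

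**Figure D4:**
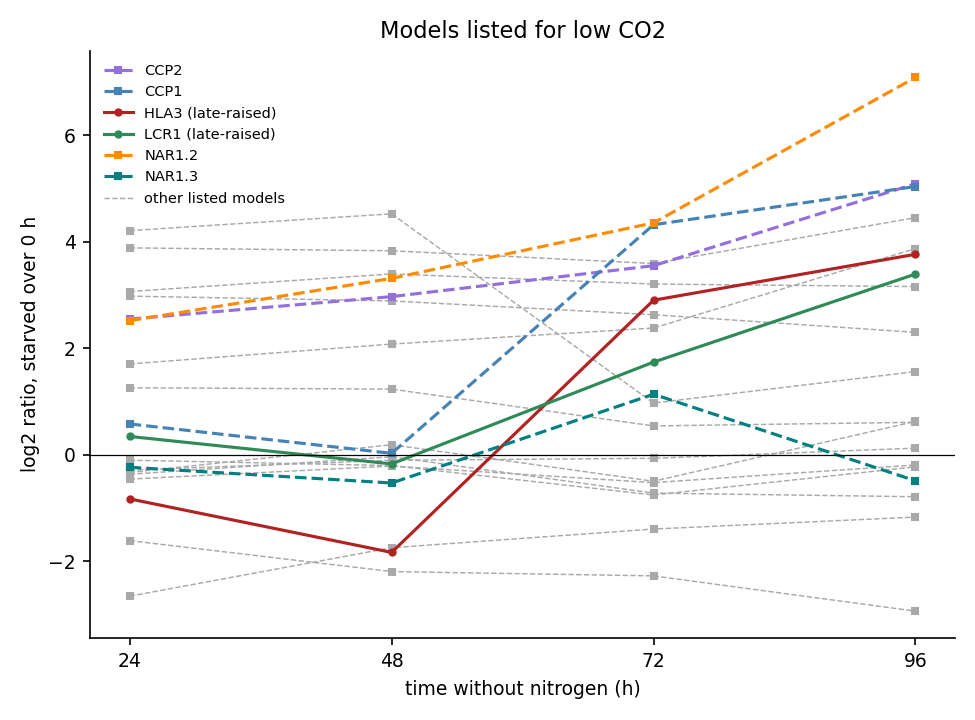
Log2 ratio, starved over 0 h, of the 19 models listed for low CO2 on the 24, 48, 72 and 96 h arrays. Solid lines with circles are the late-raised HLA3 and LCR1, and dashed lines are models outside the limits; CCP1 is at 0.58 at 24 h, 0.03 at 48 h and 4.32 at 72 h.

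No late-raised model was in the other lists, which had the same sources. The phosphate list had 6 of 7 models measured, with ratios of 2-fold or more for 1, 2, 2 and 1 of them on the 24, 48, 72 and 96 h arrays, and 2 were at least 2-fold lower on each array. These were PTB3, at -3.24, -4.72, -4.64 and -4.61, and 1 of its models of the regulator PSR1, at -2.84, -2.24, -2.25 and -1.35. The other PSR1 model, 196473, went the opposite way, with 3.46, 3.58, 3.08 and 3.25 from 1 kept probe. The study reported PSR1 as up-regulated and listed this PTB3 model as raised on average. The phosphate transporter PTB2 had -0.63, 1.22, 2.38 and 0.52 and so failed the limit at 96 h. The sulfur list had 10 of 14 measured, and 1, 1, 4 and 4 of these were at least 2-fold lower on the 24, 48, 72 and 96 h arrays, with a median of -0.73 at 72 h. Its only model 2-fold higher on any array was the sulfate transporter SLT1, at 0.41, -0.11, 0.07 and 2.76. Stress light harvesting had 5 of 6 measured, organic nitrogen and purine uptake 6 of 9, lipid and carbon enzymes 10 of 11 and gametogenesis and autophagy 2 of 3. At 96 h a ratio of 2-fold or more was seen in 2, 3, 6 and 1 models of these lists, against 10.2% of all measured models, and 1 model of each was at least 2-fold lower, against 14.3%.

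RPS6 (model 104348, CHLRE_09g400650v5), a protein of the small cytosolic ribosomal subunit, had log2 ratios of -0.13, 1.04, 1.30 and 1.94 at 24, 48, 72 and 96 h. The highest and lowest of its 3 probes were 0.10 apart at 24 h and 0.13 apart at 96 h. Slot 2 had intensities of 24032, 50951, 72443 and 117539 in starved cells, against 25983, 24829, 29125 and 30716 at 0 h. RACK1 (model 105734, CHLRE_06g278222v5), a scaffold protein bound to the small subunit, had -0.23, 1.15, 1.20 and 2.10. Slots 1 and 3 agreed at 96 h with 2.14 ± 0.28 and 2.10 ± 0.28, and slot 2 was lower on every array, with 0.35 ± 0.21 at 72 h. IF2Bd (model 108477, CHLRE_12g558650v5), the delta subunit of the nucleotide exchange factor of translation initiation, had -0.08, 0.43, 1.22 and 1.12 from 2 kept probes. Its slot 1 had 191, 212, 533 and 569 in starved cells, against 187, 149, 205 and 259 at 0 h. With normexp and loess its late gain, the mean of 72 h and 96 h minus 24 h, was 0.63 in place of 1.25.

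Other models of protein synthesis that could be named differed among themselves. The readable part of the study's annotation table assigned 20 models to protein synthesis, a list made after the values were seen. Besides RPS6 and IF2Bd it held 18 models, of which 8 were measured. Late-raised models without a name could not be sorted by function, and some of them may act in protein synthesis. These 8 models therefore do not describe protein synthesis as a whole. The large subunit protein RPL24 had 0.21, 1.15, 0.86 and 1.38, whereas RPL9 had -0.08, -0.07, 0.01 and 0.13. IF2Be, the epsilon subunit of the same exchange factor as IF2Bd, had -1.16, -0.18, 0.03 and -0.0029. RPL24 was the only one of the 8 that was at least 2-fold higher on any array. At 96 h another 3 lay at -0.5 or lower, among them the elongation factor EFP1 at -0.79. The median of the 8 was -0.40 at 24 h, -0.13 at 48 h, 0.02 at 72 h and 0.06 at 96 h. The study reported no ribosome-related gene as up-regulated, and says it kept only genes up-regulated at all time points. RPS6, RACK1 and RPL24 were under 0.5 at 24 h here and at least 2-fold higher at 48 h and 96 h.

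OTA1 (model 195386, CHLRE_11g474800v5), an ornithine transaminase that links ornithine and arginine breakdown to glutamate and proline, had -0.29, 0.98, 1.84 and 1.43, with its highest value at 72 h. Slot 1 had intensities of 10543, 22133, 45689 and 34240 in starved cells, against 11395, 11752, 12450 and 12528 at 0 h. Slot 2 had 239, 628, 1301 and 831, against 328, 304, 372 and 312. At 72 h the slots gave log2 ratios of 1.88 ± 0.27 and 1.81 ± 0.27. The left-out slot 3 printed above had 57.9, 160, 279 and 237 in starved cells, and its 0 h signal failed the background flag on every array. RHE (model 196590), an RNA helicase, had 0.42, 1.19, 1.22 and 1.31 from slot 1, and its other probes were not well above background in either dye on any array.

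Among models with no name in the tables used and at least 2 kept probes, model 152438 (CHLRE_16g682725v5) had the highest mean of 72 h and 96 h. Its log2 ratios were 0.23, 1.98, 2.31 and 2.17, which also made it the highest of the 65 at 48 h. Slot 1 had 12809, 38096, 57589 and 48198 in starved cells, against 10788, 9142, 10492 and 9238 at 0 h. Model 184594 (CHLRE_03g148500v5) had 0.23, 1.31, 1.67 and 2.50, model 189872 (CHLRE_01g029000v5) had -0.02, 0.77, 1.69 and 2.45, and model 193410 (CHLRE_16g680454v5) had 0.02, 1.12, 1.89 and 1.90. Model 190827 (CHLRE_12g547100v5) had 0.27, 1.21, 1.22 and 2.39. Models 192083, 139269 and 205515 had 0.49, 0.48 and 0.23 at 24 h and 1.84, 1.83 and 1.93 at 96 h. Without its saturated spots the late gain of model 192083 was 0.58 in place of 1.12. The next highest models at 48 h after model 152438 were 142001, with 0.40, 1.57, 1.24 and 1.11, and 187517, with 0.31, 1.57, 1.60 and 1.63. Both rest on 1 kept probe, and with normexp and loess they had 0.73 and 0.62 at 96 h. Their 0 h signals were not level. That of model 187517 was 188 on the 24 h array and 97 on the 96 h array, against 232 and 300 in starved cells. With 1 common 0 h signal this model had 0.725 at 24 h, above the limit, and a late gain of 0.64 in place of 1.31. The 0 h signal of model 142001 was 269 on the 48 h array and 456 to 484 on the others.

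The remaining late-raised models were closer to the limits. The mean of 72 h and 96 h was under 1.5 in 50 of the 65 models and at least 2 in 7, and the 96 h ratio was 4-fold or more in 9. Just inside the 24 h limit were models 148547, 186361 and 205939, at 0.50, 0.50 and 0.49, and just outside it models 154188, 194947 and 105419, at 0.50, 0.51 and 0.51. By the lower of the values at 72 h and 96 h, models 186386, 155455 and 141958 lay just inside at 1.01, 1.01 and 1.02, and models 155649, 165649 and 196588 just outside at values that round to 1.00. These distances were far smaller than the software error of a spot, whose median over the late-raised models was 0.21 to 0.24 on the 4 arrays.

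Of the 65 models 21 rested on 1 kept probe, 21 on 2 and 23 on 3. Among the 44 with more than 1, every kept probe met all 3 limits in 21 models, some did in 21 and none did in 2, models 186361 and 196219, which met them only as a median. The median of these same probes chose the models, so a positive late gain in most of them is fixed by the choice. Of the 111 kept probes of these models 4 had a late gain below 0. In model 186361 it was -0.05 in slot 1 and 1.21 in slot 2.

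**Figure D5:**
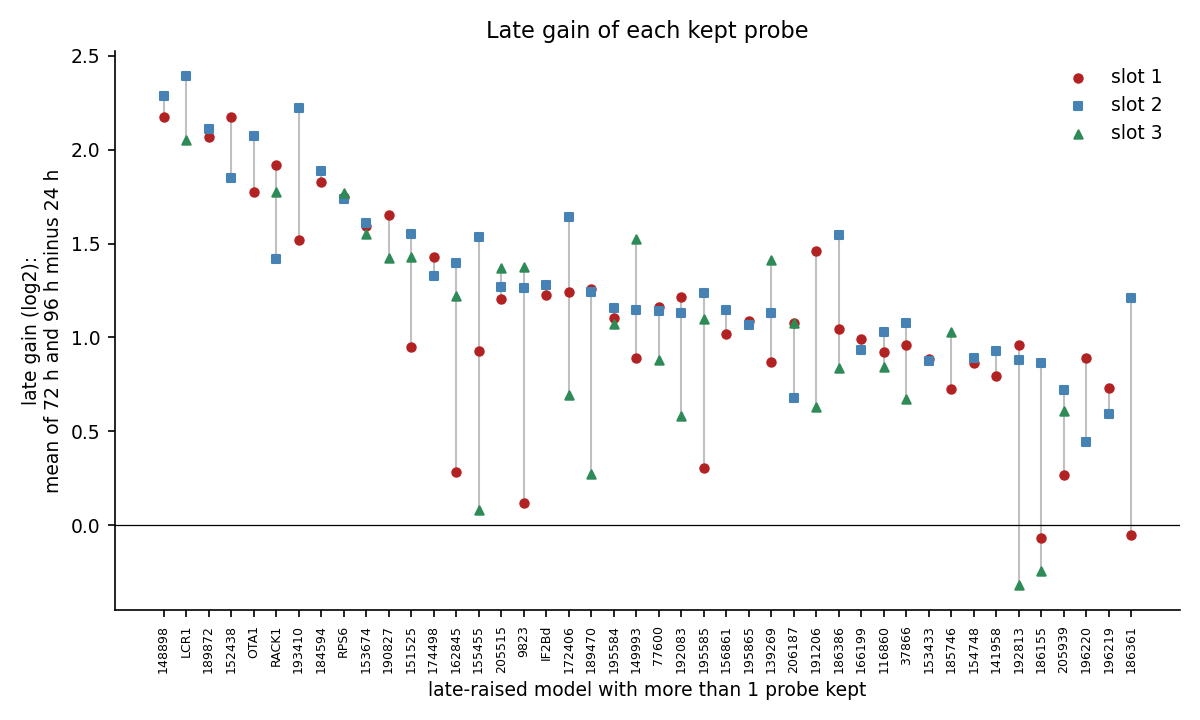
Late gain (log2), the mean of 72 h and 96 h minus 24 h, of every kept probe of the 44 late-raised models with more than 1 kept probe, 1 column per model, by slot. The median of these probes chose the models; of the 111 probes shown, the 4 below 0 belong to models 192813, 186155 and 186361.

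Probes of the same sequence set the technical scale. Model 195584 (CHLRE_09g388200v5) gave 0.29, 1.08, 1.20 and 1.59 in slot 1 and 0.23, 1.11, 1.17 and 1.60 in slot 2, while the different sequence in slot 3 gave 0.04, 0.96, 0.97 and 1.24. Over the 23 measured models whose slots 1 and 2 carried the same sequence, the median absolute difference was 0.06 to 0.11 on the 4 arrays and the largest was 0.78. Model 171346 (CHLRE_07g351500v5) went against this. Its kept slot 1 gave 0.41, 0.69, 1.06 and 1.04, and the same sequence in slot 2 gave 1.07, 0.34 and 0.76 at 48, 72 and 96 h. At 24 h the 0 h signal of slot 2 was not well above background, at 58.4 against 172 in slot 1, so slot 2 was left out. The place of model 171346 among the late-raised models depends on which copy is read.

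Saturation touched 9 of the 65 models. In models 162845, 155455 and 195585, 1 probe was saturated in both dyes on all arrays and gives no fold, and the other probes carry the pattern: slots 2 and 3 of model 195585 (CHLRE_02g101350v5) had 1.67 and 1.40 at 96 h, and its saturated slot 1 had 0.10. Models 192083, 149993, 9823, 172406 and 205939 had a Cy5 spot saturated on 1 to 3 arrays, as HLA3 did at 96 h.

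In the RefSeq annotation of assembly v5.5, 57 of the 65 models matched a locus through the older locus tag, on 14 chromosomes, with 1 on an unplaced sequence. Chromosome 2 held 8, chromosome 9 held 7, and chromosomes 3 and 16 held 6 each. The nearest pair was models 166073 and 141167 on chromosome 10, with 1 annotated gene between them. Their ratios were 0.19, 0.15, 1.06 and 1.77, and 0.40, 0.94, 1.05 and 1.38. Models 192083 and 149993 on chromosome 9 had 6 genes between them, and 8 pairs in all lay within 25 positions of each other. How often this would hold for other models was not tested.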

How the data were processed

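RNA of strain cc3491 was measured on 4 arrays of 2 dyes, with starved cells (24, 48, 72 or 96 h) in Cy5 and cells at 0 h in Cy3. Scanner images had been quantified with Agilent Feature Extraction (10.7.3.1). In the deposited files the processed intensity of each spot had its background subtracted and was dye-normalized, and median intensity and background stood beside it. The deposited log10 ratio was processed Cy5 over processed Cy3, and its log10 error was that of the software for 1 spot. The deposited flags for background and saturation were used as they stood. The authors' further lowess step, done after these files, was not used.

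Ratios were taken as log2 of processed Cy5 over processed Cy3. Of 43671 probes named for slots of models, 16264 were well above background in both dyes on all 4 arrays and were kept. Kept probes of a model were combined by their median, and 2994 models rested on 1 probe, 2705 on 2 and 2620 on 3. The study left probes of the first-generation array out of its analysis. It gave their lower log2 ratios and the cross hybridization potential of many of them as reasons. The probe names do not mark these probes, so all 3 slots were used here. Between 17101 and 18967 probes were well above background at 0 h and between 24239 and 26786 in starved cells. The number of arrays limits the precision. Software errors were turned into log2 units. Over 13 probes spotted several times the median SD between spots was 0.059 to 0.094 log2 units per array.

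No statistical test was run, since each time was 1 array and the choice of models used 3 of the 4. The members and lists were chosen with earlier results of these data known. Named models were the 12 with the highest late mean and at least 2 kept probes, those with a name in the study's tables, the 3 highest and 3 lowest at 48 h, and the 3 nearest each limit on either side. Alternatives used normexp (offset 50) with loess (span 0.3, 4 iterations) in limma 3.58.1 under R 4.3.3, median centring, the mean of probes, fewer slots, at least 2 kept probes, no saturated spots, other background filters and other limits. The step that applies the limits was checked on simulated ratios. Names, loci and probe sequences came from the readable part of the study's tables and from RefSeq (v5.5), and models without an entry are given by number. Other steps used pandas 2.3.3 and numpy 2.4.6.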

Additional observations from a re-analysis of the deposited data

Results flagged for a closer look

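In 4 of the 25 named late-raised models, the 0 h signal of 1 array stood apart from the other three by Dixon's gap, the distance to the nearest value over the whole range. Chance alone gives this in about 1 in 20 groups. For HLA3 (model 134058) the gap was 0.93 on the 96 h array, where the centred log2 signal at 0 h was 3.46, against a median of 0.17 on the other arrays. For RACK1 (model 105734) on the 96 h array it was 0.93, for model 184594 on the 24 h array 0.84 and for model 139269 on the 24 h array 0.90, but the whole range of these 3 models was 0.05. What set the 0 h signal of HLA3 apart was not tested.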

How the results depend on the processing

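The number of late-raised models was 65 and moved most with the limits: it was 37 and 100 with a 24 h limit of 0.3 and 0.7, and 123 and 8 with a late limit of 0.8 and 1.5. When probes well above background in either dye were kept, 104 models met the limits and 49 of these were at least 2-fold higher at 48 h. With normexp and loess the number at least 2-fold higher at 48 h was 13, of 44 models, and 35 of the 65 models were among the 44. The other planned settings and the common 0 h signal, which was added after the data were seen, gave 44 to 96 models. The median log2 ratio at 48 h was 0.85 to 0.97 under all 9 alternatives. Under normexp and loess, median centring, the mean of probes and the common 0 h signal alike, 27 of the 65 models met the limits. Among them were HLA3, LCR1, RPS6, OTA1 and models 195242, 205698 and 152438, but not RACK1, IF2Bd, RHE or model 148898. The late gain of the 25 named models is positive by the choice. Among its recomputed values that of model 186361 was -0.05 with no background filter. With that setting the late gain was 0.03 for RHE, 0.03 for model 148547 and 0.05 for model 142001. No paired analysis was possible because each time was 1 array and no result came from a test. The share of dim probes, dye bias and the single pooled RNA per time limit all values.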
